A study of Mus musculus with 30 samples.

Results

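The 9 genes described here encode the enzymes that process antigen in endosomes and lysosomes and 1 of their inhibitors, and they were chosen by symbol from the 32285 genes of 4 single-cell libraries of mouse spleen. They are the cysteine cathepsins Ctsb, Ctsh, Ctsl, Ctss and Ctsz, the aspartic protease Ctsd, the asparaginyl endopeptidase Lgmn (legumain), the thiol reductase Ifi30 (GILT) and the cysteine protease inhibitor Cst3 (cystatin C). All 9 symbols were found once in the files of every library. The libraries came from spleen cells depleted of red blood cells, 2 from mice labelled Smc3-WT and 2 from mice labelled Smc3-cKO. The product of Smc3 is part of cohesin, which holds chromatin in loops. The study concerns cohesin and the transcription factor PU.1 in conventional dendritic cells (cDC). The labels give an age of 6 to 8 weeks for the mice whose dendritic cells were sorted and no age for the mice of the single-cell libraries, and they name no strain, no Cre driver and no deleted exon. Whether 2 libraries of a genotype came from separate mice is not stated, so p-values measure the spread between these libraries.

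Antigen taken up by dendritic cells, macrophages and B cells is unfolded and cut in acidic endosomes, and the peptides are loaded onto MHC class II. Cathepsin S removes the invariant chain from MHC class II in these cells, legumain opens some antigens for further cutting, and GILT reduces the disulfide bonds that keep proteins folded. Cystatin C is secreted and blocks cysteine cathepsins, and high Cst3 RNA is a long-known trait of the cDC1 subset of dendritic cells.

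Promoter sequences were available from RefSeq (GRCm38.p6) for 7 of the 9 genes, as windows of 250 bases before and 50 bases after a start site, with 2 windows for Lgmn. Sequences are shown for Ctsl and Cst3, which pDC-like and cDC1-like cells led, for Ctss, whose window holds a PU.1 site, and for the genes holding the longer E-box (Ctsd, Ifi30). Capitals mark every match, on either strand, to GAGGAAGT (the site of PU.1), CACGTG (the E-box core of the lysosome factors TFEB and TFE3) or TCACGTGA (a longer E-box that contains CACGTG).
Ctss, chr3:95526536-95526835, plus strand: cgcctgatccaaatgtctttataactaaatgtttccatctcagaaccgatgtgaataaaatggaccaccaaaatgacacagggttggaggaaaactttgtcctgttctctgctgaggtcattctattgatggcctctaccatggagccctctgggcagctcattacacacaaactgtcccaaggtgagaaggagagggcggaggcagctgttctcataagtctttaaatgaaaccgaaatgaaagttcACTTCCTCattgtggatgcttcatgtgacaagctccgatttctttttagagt
Ctsd, chr7:142387778-142388077, minus strand: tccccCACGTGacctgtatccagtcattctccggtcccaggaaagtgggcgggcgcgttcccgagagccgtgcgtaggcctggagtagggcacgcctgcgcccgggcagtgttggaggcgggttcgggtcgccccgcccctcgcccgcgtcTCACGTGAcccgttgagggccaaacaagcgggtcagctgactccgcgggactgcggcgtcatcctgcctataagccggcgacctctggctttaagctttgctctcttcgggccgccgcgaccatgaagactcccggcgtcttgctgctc
Ifi30, chr8:70766614-70766913, minus strand: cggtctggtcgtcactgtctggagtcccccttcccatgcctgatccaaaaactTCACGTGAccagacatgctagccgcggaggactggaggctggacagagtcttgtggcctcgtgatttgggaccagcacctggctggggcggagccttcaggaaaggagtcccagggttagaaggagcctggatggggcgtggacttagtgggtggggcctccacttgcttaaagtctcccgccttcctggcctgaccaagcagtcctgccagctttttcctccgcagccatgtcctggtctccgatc
Ctsl, chr13:64370471-64370770, minus strand: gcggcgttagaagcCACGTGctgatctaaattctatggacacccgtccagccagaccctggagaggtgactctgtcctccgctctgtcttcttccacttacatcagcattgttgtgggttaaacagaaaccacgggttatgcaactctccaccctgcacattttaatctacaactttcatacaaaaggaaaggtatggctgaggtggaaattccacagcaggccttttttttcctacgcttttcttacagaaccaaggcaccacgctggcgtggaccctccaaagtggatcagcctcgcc
Cst3, chr2:148875463-148875762, minus strand: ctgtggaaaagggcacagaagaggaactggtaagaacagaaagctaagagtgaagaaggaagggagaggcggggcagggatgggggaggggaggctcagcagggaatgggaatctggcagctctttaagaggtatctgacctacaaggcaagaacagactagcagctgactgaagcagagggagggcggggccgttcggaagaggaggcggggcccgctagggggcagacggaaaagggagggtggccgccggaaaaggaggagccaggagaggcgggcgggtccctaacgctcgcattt
GAGGAAGT was found in the Ctss window alone, with its first base at position -2 from the start site, and in 3.2% of 32817 promoter windows of the same length. CACGTG was found in 4 of the 8 windows, for Ctsd, Ctsl, Ifi30 and 1 of the 2 windows of Lgmn, and in 7.15% of all windows. The Ctsl window and that Lgmn window (chr12:102439043-102439342) lie wholly inside the annotated genes. On the minus strand these genes begin at 64370772 and 102439728, so these 2 matches are not upstream of the genes. TCACGTGA was found for Ctsd at -99 and for Ifi30 at -197, and in 0.975% of all windows. A match is a description of the letters, and binding of these factors was not measured here.

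Depth was 40367056 to 51299056 UMIs in 9074 to 16096 barcodes per library, and 44803 cells were kept. Libraries shared 36 to 61 barcodes per pair, at most 0.432% of the smaller library. Mitochondrial genes took a median of 7.51 and 3.25% of the UMIs of a barcode in Smc3-WT and of 5.64 and 3.97% in Smc3-cKO. Replicate 1 of each genotype also carried more haemoglobin RNA, with a summed level of 10 erythroid markers in cDC2-like cells of 4138, 81.9, 1212 and 21.9 CPM in Smc3-WT replicates 1 and 2 and Smc3-cKO replicates 1 and 2. CPM, the usual per-million scale, were taken over all UMIs of a class in 1 library. Smc3 itself was at 84.1 and 97.1 CPM in cDC2-like cells of Smc3-WT replicates 1 and 2 and at 92.3 and 98.8 CPM in those of Smc3-cKO, and at 111 and 107 against 96.9 and 109 CPM in B-like cells. In both Smc3-cKO libraries it was above both Smc3-WT libraries in cDC1-like cells (97.0, 114, 144 and 226 CPM in that library order), in the sum of all cDC-like cells (84.6, 99.8, 115 and 123 CPM) and in macrophage-like cells (52.7, 37.5, 77.4 and 85.0 CPM). As no deleted part is named and the kit reads 3′ ends, this RNA does not check the labels.

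Cells were grouped in clusters made without the 9 genes, and clusters were named from marker lists. The markers that follow come from those lists, so they describe the classes and do not test the names. Xcr1 was at 234 to 495 CPM in cDC1-like cells and at a mean of at most 7.62 CPM in any other of the 11 classes compared. Clec9a was less sharp, at 318 to 692 CPM there against a mean of 224 CPM in pDC-like cells. Siglech was at 3023 to 3361 CPM in pDC-like cells and at a mean of at most 103 CPM in any other class. Vcam1 was at 2163 to 4312 CPM in macrophage-like cells against a mean of at most 181 CPM. Ly6c2 in classical monocyte-like cells was uneven, at 1116, 334, 1407 and 297 CPM, against a mean of 621 CPM in pDC-like cells. The cDC2-like class was also less sharp, since Sirpa was at 352 to 611 CPM there and at a mean of 1263 CPM in macrophage-like cells. Its Cd209a ranged from 89.6 to 787 CPM and its Clec4a4 from 16.4 to 85.4 CPM. In library order (Smc3-WT replicates 1 and 2, then Smc3-cKO replicates 1 and 2, used throughout), the classes held 58, 76, 48 and 30 cDC1-like cells and 110, 180, 74 and 172 cDC2-like cells. Mature cDC-like cells numbered 74, 38, 30 and 19, and pDC-like cells 49, 86, 98 and 48. Because clusters rest on the genes of the same cells, levels between them are given as a description, with the mean and SD over the 4 libraries, and tests between classes use cells gated one by one on marker genes.

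**Figure D1:**
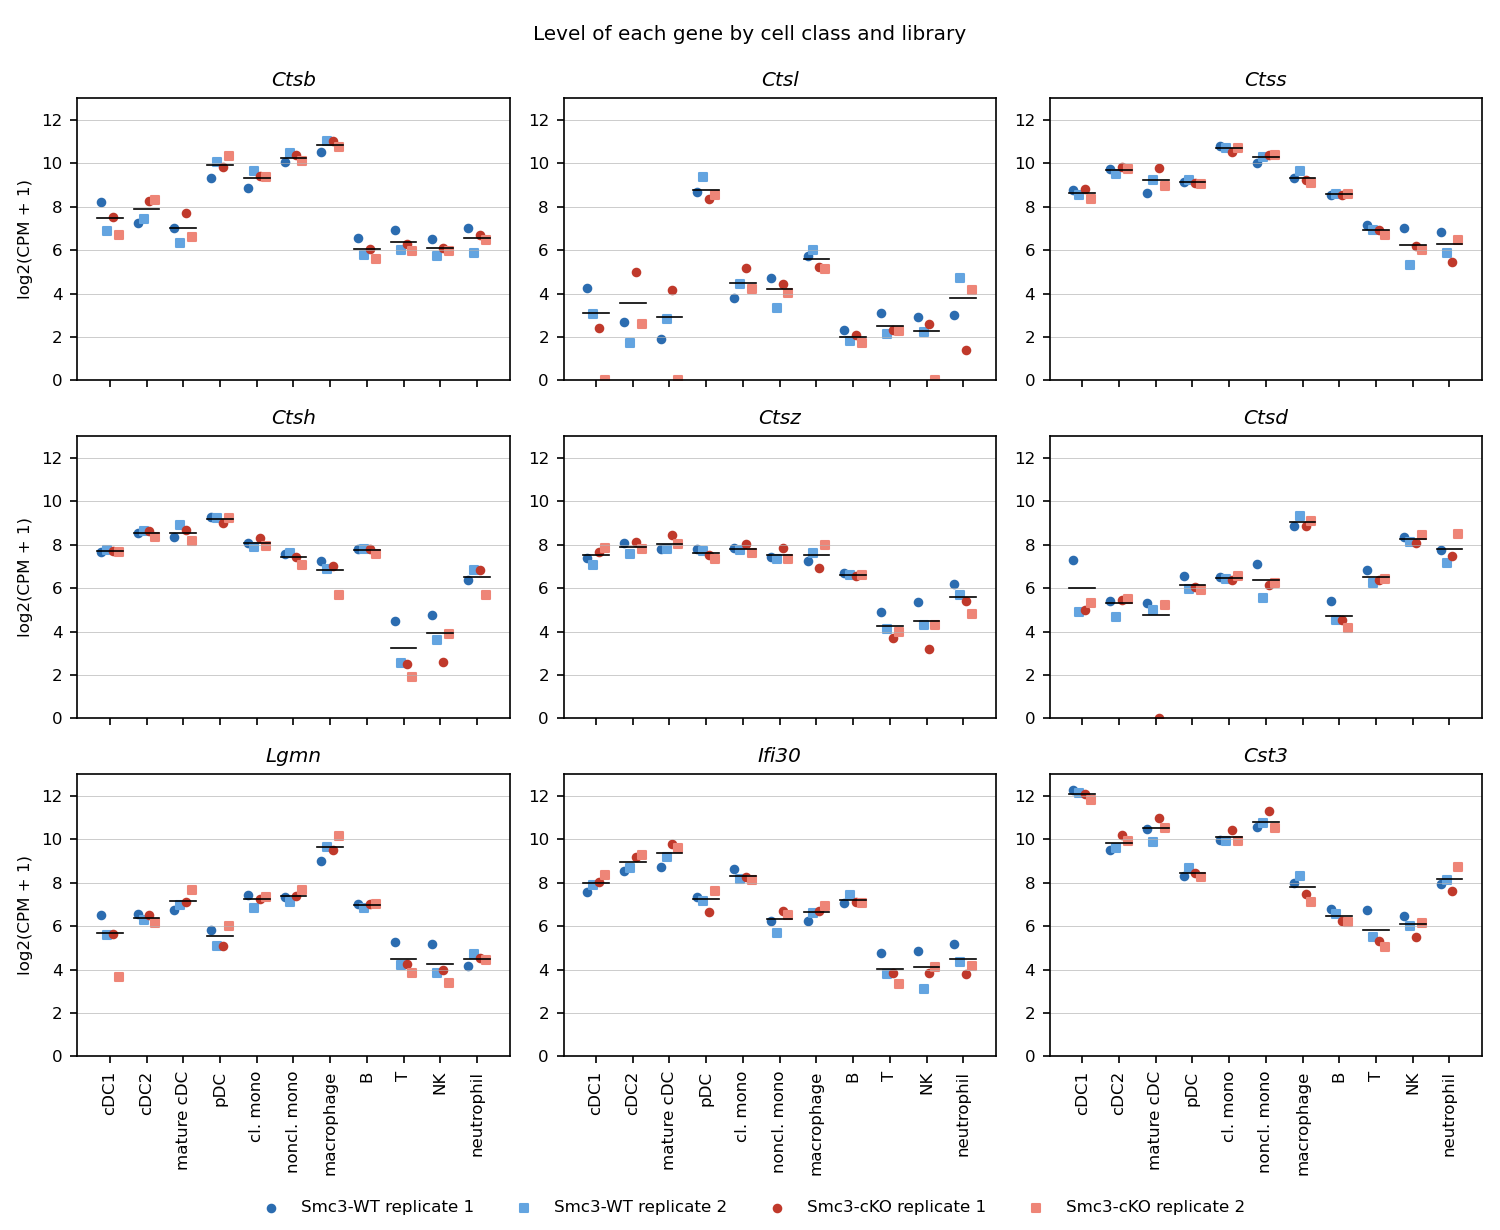
Level of each of the 9 genes, as log2(CPM + 1), in 11 cell classes (horizontal axis, cl. mono and noncl. mono are classical and nonclassical monocyte-like cells). Points are the 4 libraries, Smc3-WT in blue and Smc3-cKO in red, and the line is the log2 of the mean CPM plus 1. Ctsl stands out in pDC-like cells and Cst3 in cDC1-like cells, while Ctsz is spread evenly over the dendritic, monocyte and macrophage classes and lower in neutrophil-like cells.

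Among the cysteine cathepsins, Ctsl (cathepsin L, a broad endopeptidase) had the largest step from its first class to the next, 9.42 times in mean CPM. It was at 412, 654, 327 and 368 CPM in pDC-like cells. Every library of the next class, macrophage-like cells, was lower, at 34.0 to 64.3 CPM. The pDC-like cells were 0.627% of all cells and gave 43.8% of the 1439 Ctsl UMIs. In cDC1-like cells only 7, 4, 2 and 0 Ctsl UMIs were counted, and in cDC2-like cells 3, 2, 15 and 5, so Ctsl in cDC was near the limit of detection. From the second class on, neighbouring classes overlapped in range.

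Ctss (cathepsin S, which completes invariant chain removal) was led by the monocytes. Its level was 1807, 1679, 1485 and 1683 CPM in classical monocyte-like cells and 1021, 1261, 1336 and 1350 CPM in nonclassical ones, and these ranges did not overlap. The cDC2-like cells followed at 852, 730, 915 and 847 CPM, overlapping the macrophage-like cells. The cDC1-like cells had 443, 366, 448 and 326 CPM, a level that overlapped that of B-like cells (373 to 387 CPM). T-like, NK-like and neutrophil-like cells were lowest, at means of 75.5 to 122 CPM.

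Ctsb (cathepsin B, an endo- and exopeptidase) was highest in macrophage-like cells, at 1460, 2094, 2122 and 1700 CPM. Nonclassical monocyte-like cells had 1085 to 1422 CPM and pDC-like cells 639 to 1284 CPM, and these 2 classes overlapped. Classical monocyte-like cells were at 470 to 793 CPM, overlapping the pDC-like cells and above every library of the cDC classes. In cDC2-like cells Ctsb was at 150, 171, 310 and 316 CPM, in cDC1-like cells at 301, 117, 181 and 103 CPM, and in mature cDC-like cells at 80.3 to 206 CPM. The last 3 classes overlapped.

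Ctsh (cathepsin H, an aminopeptidase) was highest in pDC-like cells at 586 ± 50.2 CPM (SD, n = 4). Mature cDC-like cells (376 ± 88.3 CPM, SD, n = 4) and cDC2-like cells (374 ± 31.9 CPM, SD, n = 4) could not be separated. The cDC1-like cells were lower and tight, at 199, 218, 208 and 199 CPM, and overlapped the B-like cells at 187 to 224 CPM. T-like cells had a mean of 8.34 CPM. Ctsz (cathepsin Z, a carboxypeptidase) varied little among the 7 dendritic, monocyte and macrophage classes. The 7 dendritic, monocyte and macrophage classes had means between 181 and 263 CPM and every neighbour in their order overlapped, while B-like cells were below all of them at 93.1 to 102 CPM and neutrophil-like cells lower still at 27.3 to 71.3 CPM.

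Ctsd (cathepsin D, the aspartic endopeptidase) and Lgmn had their highest CPM in macrophage-like cells. Ctsd was at 461, 643, 461 and 544 CPM in macrophage-like cells, above the NK-like cells at 269 to 352 CPM and the neutrophil-like cells at 140 to 361 CPM. Dendritic classes were low, with means of 26.4 CPM in mature cDC-like, 38.4 CPM in cDC2-like, 63.2 CPM in cDC1-like and 70.0 CPM in pDC-like cells. Lgmn was at 515, 803, 721 and 1156 CPM in macrophage-like cells. Each of the other classes was at most 203 CPM in each library, with B-like cells at 112 to 130 CPM against 68.8 to 93.3 CPM in cDC2-like cells. Macrophage-like cells, 0.888% of all cells, gave 7.24% of the Ctsd and 6.31% of the Lgmn UMIs. T-like cells (24.5% of cells) gave 33.9% of the Ctsd UMIs, and B-like cells (54.9%) 67.7% of the Lgmn UMIs.

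Ifi30 (GILT) was highest in mature cDC-like cells, which are cDC that have switched on Ccr7 and Fscn1, at 420, 581, 893 and 764 CPM. It overlapped the cDC2-like cells at 369, 413, 585 and 617 CPM. The cDC1-like cells had 189, 234, 260 and 322 CPM, within reach of classical monocyte-like cells (282 to 391 CPM). Nonclassical monocyte-like cells were low at 50.6 to 103 CPM. B-like cells, at 132 to 173 CPM, held 65.4% of all Ifi30 UMIs and were 54.9% of all cells.

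Cst3 was at 5019, 4458, 4351 and 3650 CPM in cDC1-like cells. In the 10 other classes no library came above 2539 CPM, the value of nonclassical monocyte-like cells in Smc3-cKO replicate 1. The cDC1-like cells were 0.473% of all cells and gave 23.4% of the 31134 Cst3 UMIs. Mature cDC-like cells had 1411, 952, 2025 and 1469 CPM, and cDC2-like cells 728, 773, 1167 and 957 CPM. Cst3 also differed between clusters of 1 class. The cDC1-like cluster of few UMIs per cell (23, 17, 16 and 2 cells) had 10432, 9999, 6066 and 7562 CPM of Cst3, and the larger one (35, 59, 32 and 28 cells) had 4322, 4135, 4266 and 3600.04 CPM. Likewise, the mature cDC-like cluster of few UMIs had 5278, 3484, 3989 and 3245 CPM against 908, 873, 462 and 1297 CPM in the other one. How much of the Cst3 in a small class depends on the depth of its cells was not tested.

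Across the 40 sums of 10 classes in 4 libraries, the 9 genes fell into patterns that can be given as correlations of log2(CPM + 5), which describe these sums and share libraries and depth. Ctsz went most closely with Ctsh (Pearson r = 0.89, 40 sums) and with Ifi30 (r = 0.89), while Ctsd and Ifi30 ran opposite (r = -0.51). Of 6534 other genes at 50 CPM or more in at least 1 class, the 3 closest to Cst3 were Gm2a, Erlin1 and Havcr2 (r = 0.93, 0.90 and 0.90). For Ctss they were Rassf4, Plxnb2 and Pld4 (r = 0.93, 0.91 and 0.90), and for Ctsz Tifa, Zfp385a and Rassf4 (r = 0.92, 0.92 and 0.92). For Ctsb they were 2210408F21Rik, Asph and Tcf7l2 (r = 0.94, 0.93 and 0.92), and for Ctsh Plekhm3, Rubcnl and 5031439G07Rik (r = 0.95, 0.95 and 0.91). Ifi30 was closest to Plekho1, Prcp and Ly86 (r = 0.92, 0.91 and 0.89), of which Prcp is a lysosomal carboxypeptidase. Lgmn was closest to Slc7a7, Il18 and Maml3 (r = 0.89, 0.87 and 0.87). The likeness was weakest for Ctsd (Ifitm10, Fer and March8, r = 0.84, 0.83 and 0.81) and Ctsl (Rell1 and Grm8 among its 3 closest, r = 0.84 and 0.82).

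Differences between classes were tested on cells gated by UMIs of marker genes that are not among the 9, over both genotypes with the library as a block, by the quasi-likelihood test of edgeR, adjusted by Benjamini-Hochberg, at 0.05. Gated cDC1 against gated cDC2 gave 4 of 6 tested genes past the threshold, against 10.1% of 3101 genes. Cst3 was higher in cDC1 in 4 of 4 libraries, at 7219, 6247, 5522 and 4931 CPM against 426, 600, 1368 and 1232 CPM (log2 ratio 2.86 ± 0.40 SE, edgeR adjusted p = 0.000195). Ctss, Ctsh and Ifi30 were lower in cDC1 in 4 of 4 libraries, with log2 ratios of -0.96, -0.88 and -1.04 (edgeR adjusted p = 0.0109, 0.0188 and 0.0134). Ctsb (-0.24 ± 0.28 SE) and Ctsz (-0.44 ± 0.26 SE) did not pass. The gate held only 9, 41, 14 and 72 cDC2, and the cDC1 gate as few as 18 cells in a library. The cDC2 gate took 124 of the 536 cDC2-like cells, while 87 fell in the classical and 52 in the nonclassical monocyte gate. Cd209a, 1 of its genes, was at 89.6, 212, 548 and 787 CPM in cDC2-like cells. So the gated cDC2 are a part of the class that may differ between genotypes, and its effect on the ratios was not tested. Without Smc3-cKO replicate 1, or with Smc3-WT alone, only Cst3 still passed. Without Smc3-WT replicate 2, and in the 2 libraries with at least 20 gated cDC2 (chosen after seeing the data), 2 genes passed. No share of all genes is given for such alternative fits, here or in the gated comparisons below, so their counts are a description. The Ctsh call also ended without Smc3-cKO replicate 2 and with no filter on low counts (edgeR adjusted p = 0.0514 and 0.0884).

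Between gated cDC1 and gated pDC, 5 of 8 tested genes passed, against 39.1% of 3923 genes. Ctsl was at 474, 699, 299 and 316 CPM in pDC and at 1, 0, 0 and 1 UMIs in cDC1. It passed the count filter only through pDC and had to differ, so its call, 1 of the 5, is given no ratio or p and supports nothing. Ctsb (log2 ratio -2.25 ± 0.24 SE) and Ctsh (-1.36 ± 0.22 SE) were also lower in cDC1 in 4 of 4 libraries. Cst3 was higher in cDC1 by 4.18 ± 0.24 SE on the log2 scale, and Ifi30 by 0.85 ± 0.23 SE in 3 of 4 libraries. The Ifi30 call ended without Smc3-WT replicate 2 and in the Smc3-WT libraries alone (edgeR adjusted p = 0.0673 and 0.0747).

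Gated cDC2 against gated classical monocytes gave 4 of 8 genes, against 16% of 6635 genes. Ctsh (log2 ratio 1.003 ± 0.20 SE) and Ifi30 (1.15 ± 0.21 SE) were higher in cDC2 in 4 of 4 libraries, and Ctsb (-0.69 ± 0.22 SE) and Ctsd (-1.88 ± 0.31 SE) lower in 4 of 4. The gated cDC2 values for Ctsd stand on 1, 5, 4 and 18 UMIs. The Ctsb call ended without Smc3-WT replicate 2 (log2 ratio -0.49, edgeR adjusted p = 0.380) and without Smc3-cKO replicate 2 (0.0797). It also ended with the gate minimum 1 UMI higher (0.0698). The Ifi30 call ended in the Smc3-WT libraries alone (edgeR adjusted p = 0.0688). Gated cDC2 against gated B cells gave 7 of 9 genes, against 23.3% of 12022 genes. Cst3 (2.91 ± 0.23 SE), Ifi30 (1.81 ± 0.22 SE), Ctsb (1.60 ± 0.24 SE), Ctss (1.09 ± 0.21 SE), Ctsz (1.04 ± 0.24 SE) and Ctsh (0.89 ± 0.22 SE) were higher in cDC2 on the log2 scale, Ctsb in 3 of 4 libraries and the others in 4 of 4. Lgmn alone was lower, at 114, 32.6, 106 and 48.7 CPM in cDC2 and 123, 108, 126 and 128 CPM in B cells (-1.14 ± 0.30 SE, edgeR adjusted p = 0.00102). The gated cDC2 values for Lgmn stand on 4, 7, 9 and 21 UMIs. Its call ended without Smc3-WT replicate 2 and without Smc3-cKO replicate 2 (edgeR adjusted p = 0.0539 and 0.115). In the Smc3-WT libraries alone 3 of the 7 genes passed.

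Gated macrophages against gated classical monocytes gave 6 of 9 genes, against 25.2% of 7807 genes. Lgmn was at 402, 638, 438 and 647 CPM in macrophages and 53.2, 63.6, 77.8 and 96.0 CPM in monocytes (log2 ratio 2.86 ± 0.26 SE, edgeR adjusted p = 1.09e-06). Ctsb (2.04 ± 0.31 SE) and Ctsd (1.57 ± 0.23 SE) were also higher in macrophages, and Cst3 (-1.68 ± 0.31 SE) and Ifi30 (-1.22 ± 0.23 SE) lower, each in 4 of 4 libraries. Ctsl was at 43.6, 55.1, 25.7 and 46.9 CPM in macrophages and 10.6, 19.1, 23.1 and 12.6 CPM in monocytes. These values stand on 32, 12, 16 and 5 UMIs and on 5, 12, 41 and 17 UMIs. Ctsl passed the count filter only through macrophages, so its call, 1 of the 6, is given no ratio and supports nothing. The Ctsl call ended without any 1 of 3 libraries: Smc3-WT replicate 1, Smc3-WT replicate 2 or Smc3-cKO replicate 2. It also ended with the gate minimum 1 UMI higher (edgeR adjusted p = 0.0533).

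Gated classical against gated nonclassical monocytes gave 7 of 9 genes, against 20.1% of 7546 genes. Ctsb (log2 ratio -1.48 ± 0.15 SE), Lgmn (-1.10 ± 0.16 SE), Cst3 (-0.84 ± 0.16 SE), Ctss (-0.56 ± 0.13 SE) and Ctsz (-0.56 ± 0.14 SE) were lower in classical cells, and Ctsd (0.93 ± 0.16 SE) and Ifi30 (0.52 ± 0.14 SE) higher. Without Smc3-cKO replicate 1 the calls of Ctsz and Ifi30 ended (edgeR adjusted p = 0.0518 and 0.0752), and without Smc3-cKO replicate 2 that of Ifi30 (0.114). The Ctsz call also ended with the gate minimum 1 UMI higher (edgeR adjusted p = 0.0501). In the Smc3-WT libraries alone 4 genes passed, without Ctsz, Ctss and Ifi30. For Ctss and Ctsd the gates and the clusters gave different pictures. Ctss was at 560, 848, 860 and 1151 CPM in gated classical and 949, 1112, 1338 and 1399 CPM in gated nonclassical cells, the reverse of the order between the clusters. Ctsd was at 189, 143, 105 and 129 CPM in gated classical cells, above the 82.7 to 94.3 CPM of the classical monocyte-like clusters. The classical gate (at least 3 UMIs of Ly6c2, Ccr2, F13a1 and Vcan) took 527 classical monocyte-like cells but also 145 NK-like, 87 cDC2-like and 74 T-like cells, and the nonclassical gate took 188 classical monocyte-like cells. These cells' part in the gated ratios was not tested.

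**Figure D2:**
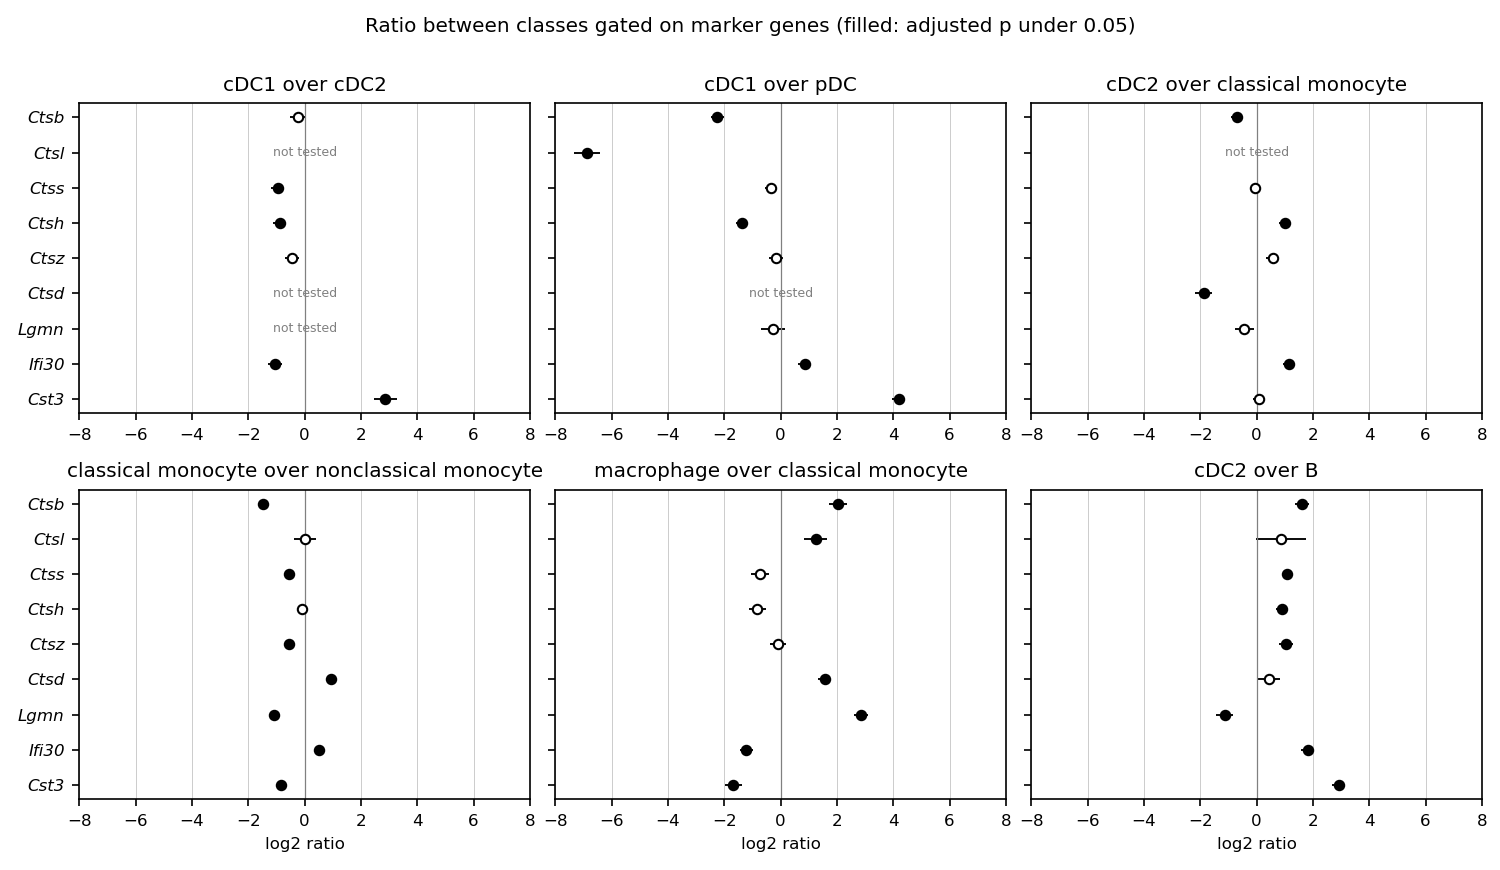
Log2 ratio of each gene between 6 pairs of gated classes (horizontal axis, first class over second), with its standard error from the edgeR fit over 4 libraries. Filled points passed an adjusted p of 0.05, and genes under the count filter are marked as not tested. Cst3 lies far to the cDC1 side of both cDC1 comparisons and Lgmn to the macrophage side. The Ctsl point of cDC1 over pDC rests on 2 UMIs in cDC1 and shows no size. That of macrophages over classical monocytes entered the test only through macrophages, and its call supports nothing.

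The genotype comparison asked whether these genes differ between Smc3-cKO and Smc3-WT within a class. None of the 9 genes passed the threshold in any of the 8 classes tested by edgeR's quasi-likelihood test (2 libraries against 2), and none passed in DESeq2. In cDC1-like cells 0 of 8 tested genes passed, against 0.0771% of 6486 genes, and 1 gene had an unadjusted p under 0.05. In cDC2-like cells it was 0 of 8 against 0.694% of 7929 genes, with 1 at an unadjusted p under 0.05. In the sum of all cDC-like cells it was 0 of 9 against 0.634% of 9618 genes, with 0 unadjusted. The background was 0% of 5376 genes in pDC-like, 0% of 7679 in classical monocyte-like, 0.0207% of 4841 in nonclassical monocyte-like, 0.0618% of 4858 in macrophage-like and 0% of 13368 in B-like cells. Of the 9 genes, 0 passed in each of these, with 0, 0, 0, 1 and 1 at an unadjusted p under 0.05. The shares of all genes are at the adjusted threshold. None is given at the unadjusted one, so the unadjusted counts have no background and are a description. With 2 libraries a side an exact permutation test cannot go below p = 0.333. Mature cDC-like cells, with 19 in Smc3-cKO replicate 2, were not tested on their own.

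**Figure D3:**
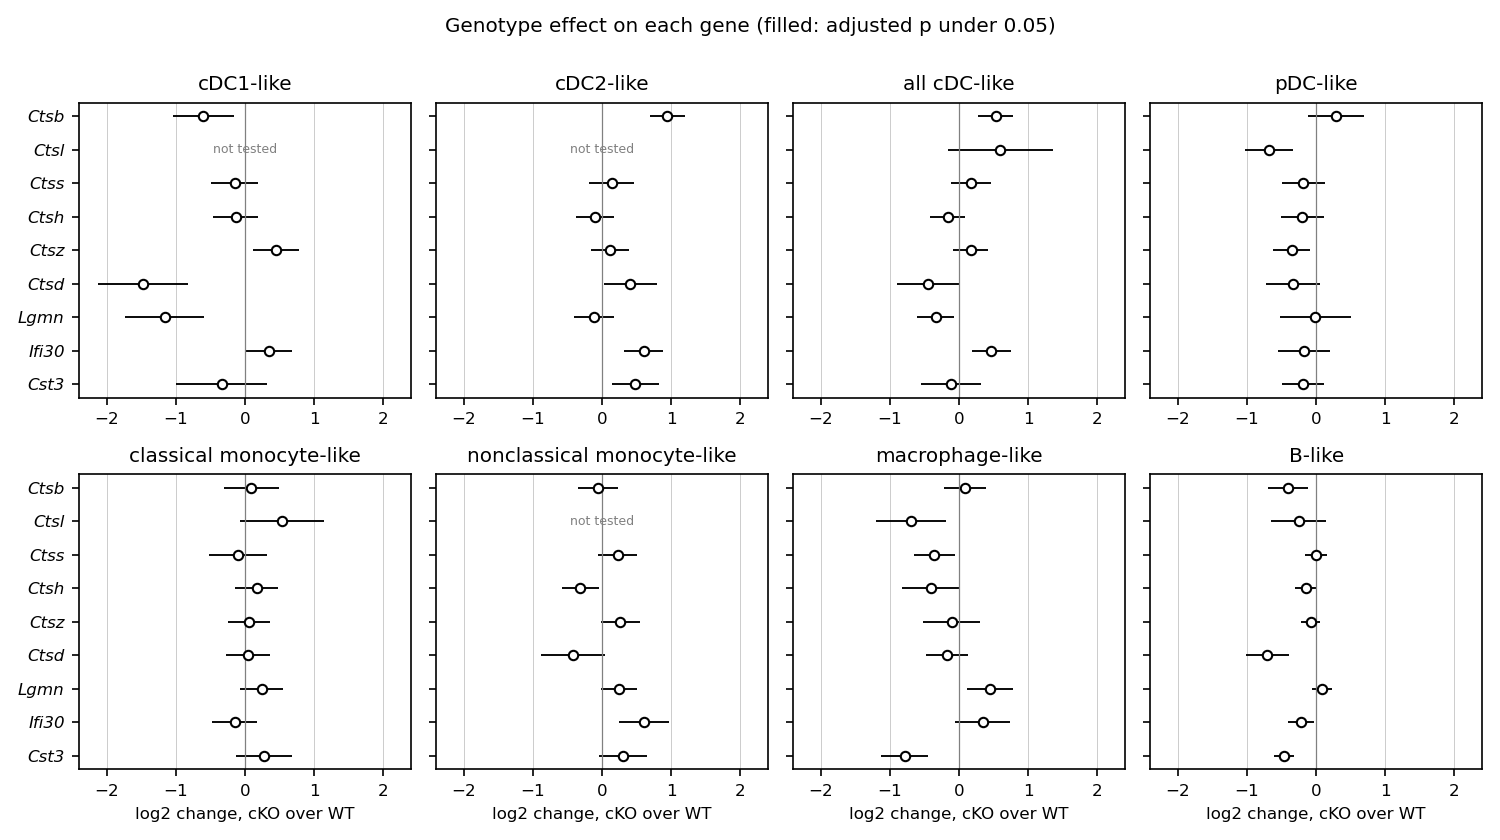
Log2 change of each gene, Smc3-cKO over Smc3-WT, with its standard error from the edgeR fit, in 8 classes. No point is filled, as none passed an adjusted p of 0.05. Ctsb in cDC2-like cells, at 0.94, lies farthest from 0 in units of its standard error.

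In cDC2-like cells the libraries of the genotypes did not overlap for 4 of 8 tested genes, all higher in Smc3-cKO: Ctsb, Ifi30, Cst3 and Ctsd. Among all 7929 genes 21.8% were higher without overlap and 19% lower, and the count over 8 genes is given as a description. Ctsd parted only narrowly, at 42.1 and 24.6 against 43.1 and 43.9 CPM, on 23, 21, 21 and 44 UMIs. In Smc3-WT Ctsb was at 150 and 171 CPM, and in Smc3-cKO it was at 310 and 316 CPM (log2 change 0.94 ± 0.25 SE, edgeR adjusted p = 0.193). It passed with the replicate number as a block (edgeR adjusted p = 0.0422), where calls among all genes rose from 55 to 301. Without Smc3-WT replicate 2, which leaves 1 Smc3-WT library, its log2 change was 1.09. Ifi30 was at 369 and 413 against 585 and 617 CPM (0.60 ± 0.29 SE, edgeR adjusted p = 0.58). Cst3 had a log2 change of 0.48 ± 0.34 SE, and Ctss, at 852 and 730 against 915 and 847 CPM, of 0.14 ± 0.33 SE. The median log2 change of the 8 genes was 0.27, against 0.02 for all genes tested.

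The cDC2-like class held 2 clusters that the genotypes filled differently. The cluster led by Frmd5 and Klri1 held 93, 144, 30 and 74 cells, and the cluster led by Cyp7b1 and Cd209a held 17, 36, 44 and 98 cells. The second had more Ctsb in every library. Ctsb was at 132, 145, 175 and 170 CPM in the Frmd5-led cluster and at 253, 258, 409 and 418 CPM in the Cyp7b1-led one. In each cluster both Smc3-cKO libraries were above both Smc3-WT libraries. The gap between genotypes was smaller in the Frmd5-led cluster than in the sum, and that in the Cyp7b1-led cluster was not tested alone. In the Frmd5-led cluster alone the log2 change of Ctsb was 0.31 ± 0.26 SE (edgeR adjusted p = 0.92), an analysis chosen after seeing the data. Ifi30 was at 340, 356, 471 and 474 CPM in the first cluster and 545, 601, 668 and 717 CPM in the second. Cst3 went opposite ways: it was at 449, 536, 903 and 695 CPM in the Frmd5-led cluster and at 2381, 1561, 1361 and 1139 CPM in the Cyp7b1-led one. The clusters were defined on genes that may differ between genotypes, so their shares are given as cell numbers without a test.

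**Figure D4:**
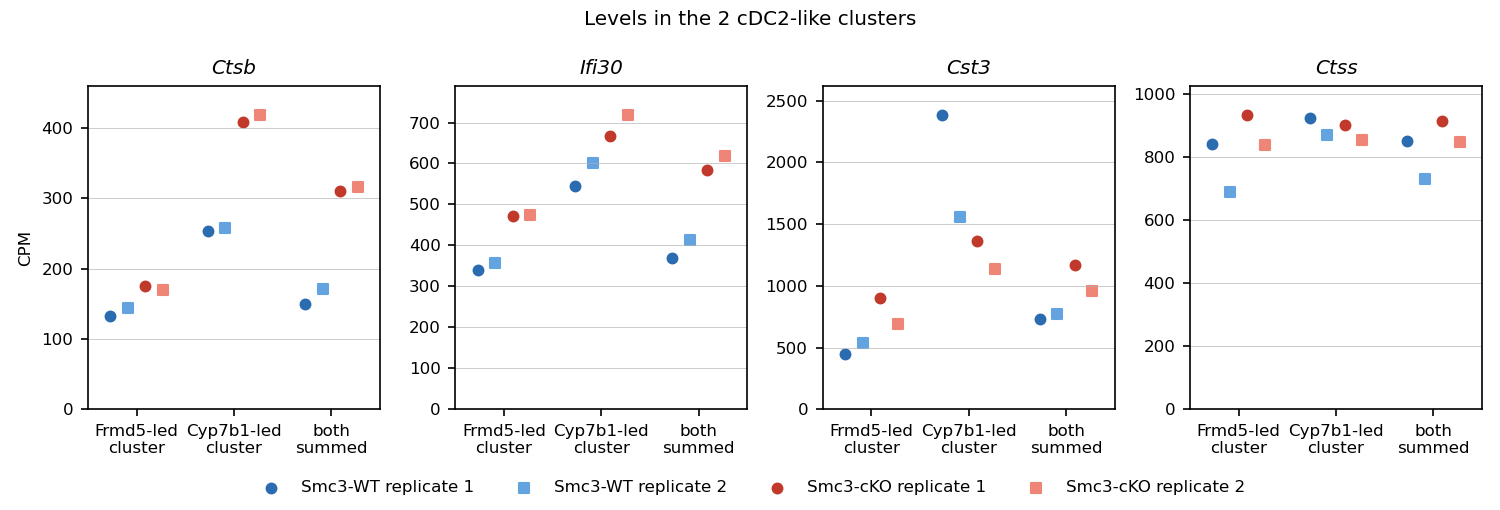
CPM of Ctsb, Ifi30, Cst3 and Ctss in the 2 cDC2-like clusters and in both summed, 1 point per library (Smc3-WT blue, Smc3-cKO red). Ctsb in the sum parts the genotypes at 171 against 310 CPM and in the Cyp7b1-led cluster at 258 against 409 CPM. The Frmd5-led cluster has a narrower gap, and Cst3 runs in opposite directions in the 2 clusters.

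Markers of other cell types moved with genotype in the cDC2-like class. Summed over 10 pDC markers, the Smc3-WT libraries had 711 and 918 CPM and the Smc3-cKO libraries 2533 and 2952 CPM, with 8 of 10 higher in both Smc3-cKO libraries. Most of that sum was Tcf4, and no pDC marker was at 0 in all libraries. The 9 classical monocyte markers summed to 536 and 581 against 1563 and 1003 CPM, with 3 of 9 higher in both Smc3-cKO libraries. Both cell types had more Ctsb than cDC2-like cells, at means of 975 and 650 CPM. Within the Frmd5-led cluster the pDC sum was 412, 406, 524 and 1147 CPM, and within the Cyp7b1-led one 2482, 2618, 4004 and 4208 CPM. Other lists were lower in Smc3-cKO: 4 of 5 pan-cDC, 8 of 14 B, 8 of 13 T and 5 of 10 neutrophil markers were lower in both Smc3-cKO libraries with 0 higher, and 5 of 9 nonclassical monocyte markers were lower with 2 higher. The part of these markers in the Ctsb values was not tested.

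In cDC1-like cells the inhibitor and the proteases gave no common direction. Cst3 was lower without overlap and Ctsz and Ifi30 higher, 1 and 2 of 8 tested genes, against 12.3% lower and 18.9% higher among all genes. The cluster of few UMIs, where Cst3 was highest, was 39.7, 22.4, 33.3 and 6.67% of the class by library, and in the larger cluster Cst3 overlapped between genotypes. Of 14 B markers 12 were lower in both Smc3-cKO libraries (summed level 2757, 2569, 1645 and 444 CPM) and 0 higher. B-like cells had a mean of 87.1 CPM of Cst3, far below the cDC1-like cells. The part of these markers in the Cst3 values was not tested. The Smc3-WT libraries had 155 and 29.3 CPM of Ctsd, and the Smc3-cKO libraries 30.6 and 38.3 CPM (log2 change -1.47 ± 0.65 SE, edgeR adjusted p = 0.9996). Smc3-WT replicate 1 alone carried the difference: without it the log2 change was 0.13, and without Smc3-WT replicate 2 it was -2.25. Macrophage markers stood apart in the same library, with a sum over 11 genes of 721, 60.4, 98.3 and 26.8 CPM. Lgmn followed the same order at 91.7, 47.6, 48.0 and 11.5 CPM (-1.16 ± 0.57 SE). As macrophage-like cells were highest in both Ctsd and Lgmn, those values stand beside the result, and their part in it was not tested.

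In the other classes the 9 genes did not pass the threshold either. In pDC-like cells Ctsl was at 412 and 654 against 327 and 368 CPM, lower in both Smc3-cKO libraries but not past the threshold (log2 change -0.68 ± 0.35 SE, edgeR adjusted p = 0.9998). Ctss in classical monocyte-like cells had a log2 change of -0.11 ± 0.42 SE, and in B-like cells, where 6134 to 9034 UMIs per library stood behind it, of 0.00 ± 0.16 SE. Cst3 was lower in macrophage-like cells (255 and 316 against 180 and 136 CPM, -0.79 ± 0.34 SE) and in B-like cells (108 and 92.7 against 75.4 and 72.1 CPM, -0.47 ± 0.15 SE), with edgeR adjusted p = 0.9999 in both. Cst3 in T-like cells was at 105, 44.6, 39.1 and 32.0 CPM, and Smc3-WT replicate 1 had the most in both T-like and B-like cells. In B-like cells 9 of 13 T, 5 of 10 cDC1 and 4 of 10 mature cDC markers were also lower in both Smc3-cKO libraries, with 0 higher, and their part in the Cst3 values was not tested. For Lgmn in macrophage-like cells the log2 change was 0.45 ± 0.34 SE. The median log2 change of the 9 genes was -0.19 in pDC-like, 0.09 in classical monocyte-like, -0.18 in macrophage-like and -0.21 in B-like cells, and 0.24 over 8 genes in nonclassical monocyte-like cells, against -0.01 to 0.02 for all genes.

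Whether the genotype effect differed between classes was tested by an interaction term, blocking on library. Between cDC2-like and cDC1-like cells 0 of 8 genes passed edgeR's quasi-likelihood test, against 0.125% of 7990 genes, and 4 had an unadjusted p under 0.05. These were Cst3 (difference in log2 change 0.79 ± 0.22 SE), Ctsb (1.41 ± 0.42 SE), Ctsd (1.61 ± 0.56 SE) and Lgmn (1.08 ± 0.50 SE), with edgeR adjusted p from 0.31 to 0.75. Ctsb passed with no filter on low counts (1.44, edgeR adjusted p = 0.00599), a fit for which no share of all genes is given. Leaving out Smc3-WT replicate 2 leaves 1 Smc3-WT library. The differences were then 2.26 for Ctsb, 2.35 for Ctsd and 0.997 for Cst3. Between cDC2-like and classical monocyte-like cells 0 of 9 passed, against 0.571% of 8584 genes, and Ctsb (0.85 ± 0.28 SE) and Ifi30 (0.74 ± 0.28 SE) had an unadjusted p under 0.05. The shares of all genes in both interactions are at the adjusted threshold. None is given at the unadjusted one, so the unadjusted counts have no background and are a description. DESeq2 was not run for the interactions.

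The other genes of the endolysosomal system were taken as 67 genes in 7 lists: other lysosomal peptidases (14), protease inhibitors (10), V-ATPase subunits that acidify the organelle (16), subunits of the phagosomal oxidase (6), lysosomal membrane proteins (9), hydrolase sorting genes (8) and transcription factors of the TFEB family (4). In cDC1-like and cDC2-like cells 0 of 50 and 0 of 51 tested genes passed, against 0.0771 and 0.694% of all genes. In the sum of all cDC-like cells 1 of 54 passed, against 0.634% of 9618 genes. This was Serpinb6b, a protease inhibitor of the serpin family that was also on the marker list of mature cDC. From 79.2 and 49.9 CPM in Smc3-WT it went to 10.96 and 13.4 CPM in Smc3-cKO, a fall of 2.46 on the log2 scale (SE 0.38, edgeR adjusted p = 0.0392). By class it was at 78.6, 76.9, 19.7 and 42.1 CPM in cDC1-like and 198, 198, 34.3 and 83.6 CPM in mature cDC-like cells, and 1.83, 4.68, 0 and 0 CPM in cDC2-like cells. Mature cDC-like cells were 30.6, 12.9, 19.7 and 8.6% of the cells in that sum, and 10 of 10 mature cDC markers, Serpinb6b among them, were lower in both Smc3-cKO libraries of the sum (summed level 1074, 665, 259 and 262 CPM). The part of this mix in the fall was not tested. In pDC-like, classical monocyte-like, nonclassical monocyte-like, macrophage-like and B-like cells 0 of 45, 51, 47, 43 and 60 tested genes passed. The shares of all genes were 0, 0, 0.0207, 0.0618 and 0% in that class order.

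The genes of these lists with the smallest p did not pass in any other class. In cDC2-like cells they were Sort1, a sorting receptor of lysosomal enzymes (80.5 and 97.1 against 26.7 and 29.9 CPM, log2 change -1.66, edgeR adjusted p = 0.0712), the carboxypeptidase Scpep1 (0.89) and Grn, which encodes the lysosomal protein progranulin (132 and 76.0 against 347 and 143 CPM, 1.22). In cDC1-like cells they were the granzyme B inhibitor Serpinb9 (60.3 and 51.3 against 2.18 and 15.3 CPM, -2.98), Serpinb6b (-1.50) and the V-ATPase gene Atp6v1c1 (1.10). Beside Serpinb6b, the sum of all cDC-like cells gave Sort1 (-1.37) and Serpinb9 (-1.88). In pDC-like cells they were Scpep1 (0.72), Ctsc (-0.62) and Ncf1 (0.51), and in classical monocyte-like cells the cathepsin inhibitor Cstb (1.04) with Atp6v1f (0.90) and Atp6v1d (0.62). Nonclassical monocyte-like cells gave Tfeb (-0.86), Atp6v0c (0.73) and Ctsc (0.60), macrophage-like cells Tfeb (-0.90) and Lamp1 (-0.66) among the first 3, and B-like cells Npc2 (-0.37), Mitf (0.42) and Ctsw (-1.54). The median log2 change of the 15 tested V-ATPase genes was 0.38 in cDC2-like cells and 0.03 in cDC1-like cells, against 0.02 and -0.01 for all genes. For the 8 tested lysosomal membrane genes in cDC2-like cells it was 0.34, and for the 6 oxidase genes -0.23.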

How the data were processed

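Spleen cells were profiled in 4 libraries with a 3′ droplet kit, and the other 26 samples of the series were not analysed here. The authors deposited raw UMI counts from Cell Ranger 7.0.0 (per the file headers), on mm10 (per the submitters' processing notes). No barcode had under 500 UMIs. Cells needed at least 200 genes and a mitochondrial share of at most 10%. Scrublet called 1.03 to 6.41% doublets per library against an expected 7.26 to 12.9%, so doublets remain. Clustering (scanpy 1.11.5, 2000 variable genes without the 9 genes and the 67 others, Leiden resolution 1, myeloid cells again) gave 45 clusters, 14 left unnamed, 13 of these for markers of 2 lineages. Counts were summed per class and library and tested with edgeR 4.0.16 (TMM, filterByExpr, R 4.3.3), which was tested on simulated data. Genotype tests needed at least 20 cells of the class in each library. Tests between gated classes had no such minimum, and the smallest library held 9 gated cDC2 and the smallest 18 gated cDC1. Genotype fits had no block. A replicate block, DESeq2 1.42.0, RLE scaling, no count filter, a stricter cell filter, gated cells, other clusterings and leaving out each library were the alternatives. Per gated cell, the class with the highest marker sum won. Named other genes passed the test, or had the 3 smallest p in a class; a few named by these rules are not reported here. The members, lists and markers were chosen with earlier results of these data known.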

Additional observations from a re-analysis of the deposited data

Results flagged for a closer look

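Grn, which encodes progranulin, had a genotype effect in cDC2-like cells that differed from that in classical monocyte-like cells by a test of the difference itself. Among cDC2-like cells the Smc3-WT libraries had 132 and 76.0 CPM and the Smc3-cKO libraries 347 and 143 CPM, and it was 391 and 251 against 389 and 234 CPM among classical monocyte-like cells. The difference in log2 change was 1.19 ± 0.28 SE (edgeR quasi-likelihood test with the library as a block, adjusted p = 0.0305). In both classes and both genotypes replicate 1 was higher than replicate 2. Within cDC2-like cells alone the Grn change did not pass (log2 change 1.22 ± 0.44 SE, edgeR adjusted p = 0.374). The Cyp7b1-led cluster made up 15.5, 20, 59.5 and 57% of that class by library, and its part in the Grn values was not tested. Grn was at 534 to 707 CPM in pDC-like cells, and 8 of 10 pDC and 3 of 9 classical monocyte markers were higher in both Smc3-cKO libraries of the cDC2-like class; their part in the Grn values was not tested.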

How the results depend on the processing

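Of 838 genotype values of single genes under the alternatives, 761 kept their side of the threshold and moved by at most 1 standard error, 7 passed the threshold under an alternative and 70 moved further without passing. Gated ratios kept their side of the threshold and moved by at most 1 standard error in 332 of 391 cases. In 35 the call was lost, in 6 one was gained, and in 18 an uncalled ratio moved further. No called value changed sign. Values uncalled in both fits changed sign in 88 of 948 cases. Leaving out each library gave 1 to 4 of the 9 genes for gated cDC1 over cDC2. In the genotype tests and the interactions it leaves 1 library of a genotype, so no counts of the 9 genes are given for those fits. With no filter on low counts 1 gene passed in the interaction of cDC2-like with cDC1-like cells. In the Smc3-WT libraries alone 1 gene passed for cDC1 over cDC2, 4 for classical over nonclassical monocytes and 3 for cDC2 over B cells. With only libraries of at least 20 gated cDC2, chosen after seeing the data, 2 passed for cDC1 over cDC2. For these counts of the 9 genes no share of all genes at the same setting is given, so they are a description.

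The genotypes share only replicate numbers, which the labels do not tie to litters or days. With the number as a block 1 gene, Ctsb, passed in cDC2-like cells and 0 in the 7 other tests. Calls among all genes rose from 55 to 301 in cDC2-like, from 5 to 67 in cDC1-like and from 61 to 298 in all cDC-like cells. Same-numbered libraries correlated in their deviations at 0.24 in cDC1-like and 0.22 in cDC2-like cells, and over the 8 classes from 0.04 in classical monocyte-like to 0.54 in B-like cells. Not run for fewer than 20 cells in a library were the gated and the members-included clustering for cDC1-like, the gate for cDC2-like, and the stricter filter for pDC-like, classical monocyte-like and macrophage-like cells. All genes called ranged with the alternatives and the left-out library from 0 to 974 in cDC2-like cells and from 0 to 148 in cDC1-like cells. Depth limits Ctsl in cDC, with at most 15 UMIs per class and library in cDC1-like and cDC2-like cells.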
